A study of Arabidopsis thaliana with 9 samples.

Results

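Doxycycline and ethidium bromide (EtBr) moved 265 Arabidopsis genes in opposite directions, out of 24319 genes measured in both of the deposited tables. Of these, 37 genes were higher under doxycycline and lower under EtBr, and 228 were lower under doxycycline and higher under EtBr. Members were chosen by their group means. A gene was taken when log2((mean of treated + 1)/(mean of water + 1)) was at least 1 for one treatment and at most -1 for the other, and when the largest of its 3 group means was at least 50 normalized counts, which 18533 genes met. Both contrasts thus chose the genes, so their changes are given below as a description, with no test. The 37 genes were 3.85% of the 960 genes that met the rule's doxycycline side and 1.07% of the 3460 that met its EtBr side. The 228 genes were 29.5% of 774 and 6.03% of 3780.

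The doxycycline, EtBr and water (H2O) groups each held 3 RNA-seq libraries of whole 7-day-old seedlings of the wild type Col-0, raised on Murashige and Skoog medium. Doxycycline is an antibiotic that stops protein synthesis on ribosomes of the bacterial type, which plant mitochondria and plastids share, and EtBr is a dye that slips between the base pairs of DNA. Dose, duration and whether libraries came from separate cultures are not given in the labels, so the spread between libraries may be technical. The libraries held 17724030 to 20330871 reads. Both changes were taken against the same 3 water libraries, so an error in a water level moved both changes the same way. Levels are the authors' normalized counts per library, which are not corrected for gene length, and water levels are those of the doxycycline table (those of the EtBr table were 1.04 to 1.06 times as high).

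Suberin is a polyester of fatty acids, fatty alcohols and ferulate that is laid down in walls of the root endodermis and of outer root tissues, where it limits the passage of water and solutes. Root hairs are tubular outgrowths of root epidermal cells that take up water and nutrients, and their growth needs wall-loosening proteins, wall extensins and peroxidases under control of bHLH factors such as RSL4. Genes of both kinds stood among the 265, on opposite sides. In bulk seedlings, fewer cells of a type and less RNA per cell cannot be told apart.

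**Figure D1:**
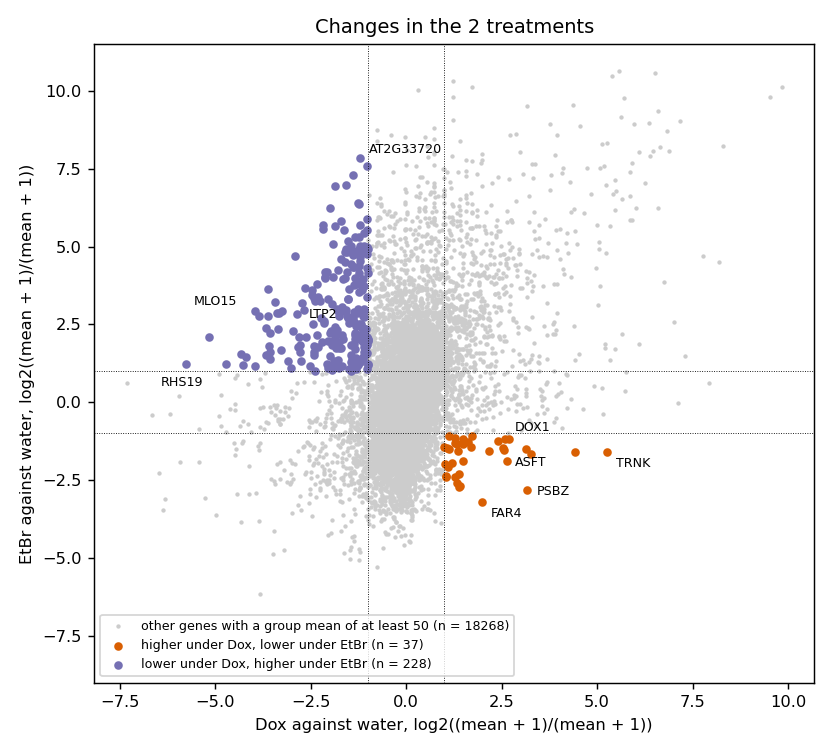
Log2 change under doxycycline against water (x axis) and under EtBr against water (y axis) for the 18533 genes with a group mean of at least 50, with dotted lines at the rule's limits of 1 and -1. The 37 genes at the lower right and the 228 at the upper left are those described, and each point rests on 3 libraries per group.

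Among the genes higher under doxycycline and lower under EtBr were 4 of the 12 measured suberin genes. These were FAR4 and FAR5, which reduce fatty acyl-CoA to primary alcohols, ASFT, which joins ferulate to these chains, and KCS2, which lengthens fatty acids. FAR4 had 214, 278 and 191 normalized counts in the doxycycline libraries and 3.52, 9.20 and 4.03 in the EtBr libraries, against 51.3, 52.9 and 66.1 in the water libraries. Its 3 groups did not overlap, and its changes were 1.99 under doxycycline and -3.2 under EtBr (log2). ASFT had 1217, 1263 and 1299 under doxycycline and 79.1, 81.9 and 66.5 under EtBr, against 215, 86.5 and 332 in water. The doxycycline libraries of ASFT lay far above the rest, whereas the EtBr libraries lay just below the lowest water library. Its changes were 2.57 and -1.53.

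KCS2 had 116, 126 and 149 normalized counts under doxycycline and 4.40, 16.6 and 8.06 under EtBr, against 29.2, 67.3 and 61.9 in water. Its groups did not overlap, with changes of 1.29 and -2.40, and its doxycycline change fell just short of the limit, at 0.999 (log2), without water replicate 1. FAR5 had 101, 203 and 165 under doxycycline and 8.79, 22.1 and 6.04 under EtBr, against 11.1, 21.2 and 54.6 in water. The EtBr and water libraries of FAR5 overlapped. Its EtBr change of -1.23 was -0.44 without water replicate 3, -0.93 without EtBr replicate 3 and -1.89 without EtBr replicate 2, and its doxycycline change of 2.39 was 3.2 without water replicate 3.

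The other 8 measured suberin genes were not members. Of all 12, 10 were higher under doxycycline by limma (on log2(value + 1), Benjamini-Hochberg adjusted p under 0.05) and 2 did not pass, where 6.47% of all genes in that table were called higher. Under EtBr 2 passed as higher, 4 as lower and 6 did not pass, where 34.2% of all genes were called higher and 21.2% lower. The median change of the 12 was 2.19 under doxycycline and -0.44 under EtBr, against -0.00 and -0.01 over the 18533 genes. The transporter gene ABCG6 averaged 722 normalized counts under doxycycline and 71.0 under EtBr, against 43.8 in water, and the acyltransferase gene GPAT5 averaged 313 and 41.8 against 34.7. FAR1, a further fatty acyl-CoA reductase gene, averaged 209.5 under doxycycline and 929 under EtBr, against 155 in water, so that it was called higher under EtBr alone. The summed level of the 12 genes was 8189 to 9818 in doxycycline libraries and 2936 to 3702 in EtBr libraries, against 5250.0 to 5829 in water libraries.

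Further members that were higher under doxycycline and lower under EtBr are known from suberized tissue or handle lipids, and were chosen for mention after their values were seen, apart from MYB39, EDA4 and VAS. MYB39, a transcription factor that activates suberin genes in the endodermis, had 269, 206 and 284 under doxycycline and 7.91, 11 and 10.1 under EtBr, against 13.1, 41.3 and 29.4 in water. The groups stood apart, with changes of 3.13 and -1.51. MYB93, a factor of the same family expressed in the endodermis, had 57.4, 92.7 and 90.7 under doxycycline and 12.3, 12 and 6.04 under EtBr, against 37.2, 13.5 and 40.9 in water. Its EtBr libraries lay just below its lowest water library. Of 58 genes named as MYB factors with a group mean of at least 50, 2 were members in this direction and 1 in the other. The median change of the 58, a group formed after the members were known, was 0.13 under doxycycline and -0.50 under EtBr. Changes were positive in both treatments for MYB41 (3.13 and 2.41) and MYB107 (2.23 and 2.14), and negative for MYB92 (-1.45 and -2.62).

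EDA4 and AT2G48130, a pair of adjacent genes on chromosome 2 of which AT2G48130 is annotated as a lipid transfer family protein, shared this pattern. EDA4 had 524, 741 and 643 under doxycycline and 42.2, 69.0 and 37.3 under EtBr, against 92.6, 109 and 225 in water. AT2G48130 had 236, 278 and 348 under doxycycline and 31.7, 46.0 and 20.1 under EtBr, against 91.6, 74.0 and 238 in water. Its top water library lay above the lowest doxycycline library, and its doxycycline change of 1.09 was 1.78 without water replicate 3, 0.88 without water replicate 1, 0.80 without water replicate 2 and 0.93 without doxycycline replicate 3. Its EtBr change of -2.08 was -1.40 without water replicate 3. VAS, annotated as a lipid transfer-like protein, averaged 68.8 ± 19.1 under doxycycline and 7.41 ± 1.2 under EtBr, against 20.6 ± 13.3 in water (SD, n = 3 each), and its EtBr change of -1.42 was -0.92 without water replicate 3. The GDSL lipase gene AT2G23540 averaged 259 ± 129 and 37.2 ± 14.3 against 91.3 ± 66.7 (SD, n = 3 each), and without water replicate 3 its changes of 1.49 and -1.34 were 2.27 and -0.58.

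Markers of the Casparian strip, the lignin band of the same endodermal cells, were not among the 265. None of the 5 measured CASP genes was called under doxycycline by limma (1 was lower at an unadjusted p under 0.05, edgeR called 0 and DESeq2 1), where 11.7% of all genes were called in either direction. Under EtBr 3 were called lower and 2 did not pass, where 55.4% of all genes were called in either direction. Their summed level was 308.1 to 525.7 in doxycycline libraries and 352.3 to 408.0 in EtBr libraries, against 497.1 to 612.7 in water libraries, with none of the 5 at 0 as a group mean. The 22 measured nuclear photosynthesis genes, which mark green shoot tissue, summed to 943107 to 1073690.0 normalized counts in doxycycline libraries and 578629 to 894889 in EtBr libraries, against 1103330.0 to 1153570.0 in water libraries. The part of a shift in tissue make-up in these results was not tested.

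**Figure D2:**
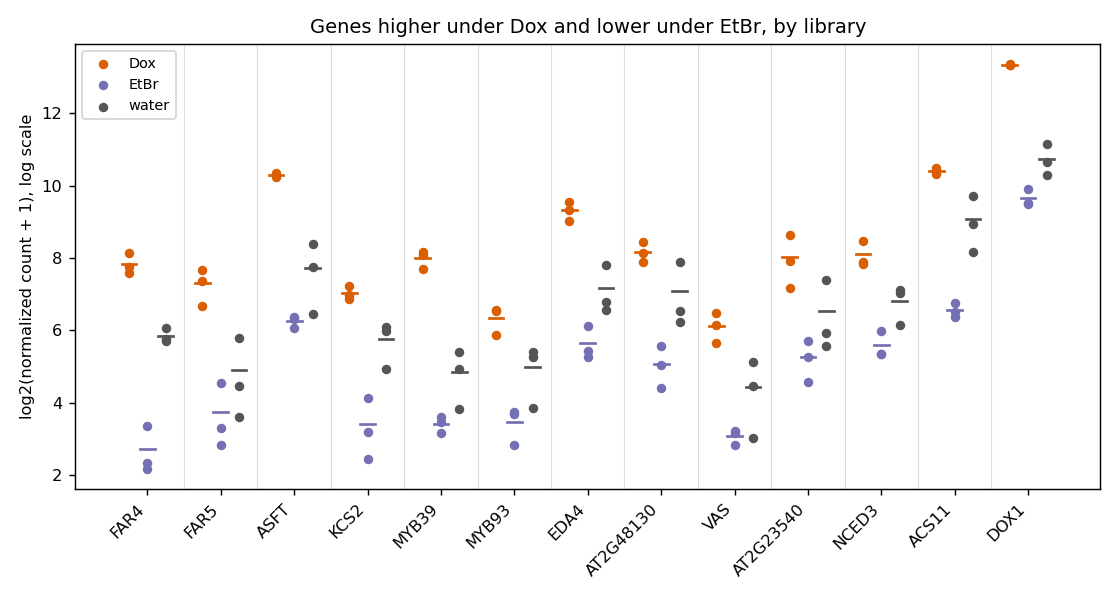
Level of 13 genes that were higher under doxycycline and lower under EtBr, as log2(normalized count + 1) on the y axis. Points are the 3 libraries of each group (doxycycline, EtBr, water, left to right within a gene) and bars are log2(mean + 1). FAR4, KCS2 and MYB39 show 3 separate groups, and FAR5 and VAS show EtBr and water libraries that overlap.

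The sequences before FAR4, FAR5 and ASFT are shown because these suberin genes share a short element there. The W-box TTGACC or its variant TTGACT, which WRKY factors bind, was searched on both strands of a 300-base window that runs from 250 bases before to 50 bases after each gene's start in RefSeq's annotation of TAIR10.1. The 2 forms can overlap by 1 base. The window of 3 of the 4 suberin members held a match (75%), as did 13 of the 33 windows of genes higher under doxycycline and lower under EtBr (39.4%), 85 of 212 windows of the opposite direction (40.1%) and 6028 of 18095 windows of all genes (33.3%). In the 250 bases before each start, 5′ to 3′ on the gene's strand, capitals mark the matches, which read GGTCAA or AGTCAA where they lie on the other strand.
FAR4 (TAIR10.1, chr3:16123176-16123425, plus strand): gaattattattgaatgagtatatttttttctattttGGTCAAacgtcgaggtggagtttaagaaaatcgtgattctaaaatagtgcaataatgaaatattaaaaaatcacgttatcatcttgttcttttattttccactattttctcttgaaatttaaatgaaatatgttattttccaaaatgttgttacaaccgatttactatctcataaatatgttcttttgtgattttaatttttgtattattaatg
FAR5 (TAIR10.1, chr3:16137326-16137575, plus strand): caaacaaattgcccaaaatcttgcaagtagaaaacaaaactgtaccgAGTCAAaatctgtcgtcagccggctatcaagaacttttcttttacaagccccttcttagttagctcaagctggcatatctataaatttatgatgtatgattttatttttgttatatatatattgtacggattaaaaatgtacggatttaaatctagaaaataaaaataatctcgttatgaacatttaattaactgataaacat
ASFT (TAIR10.1, chr5:16431054-16431303, plus strand): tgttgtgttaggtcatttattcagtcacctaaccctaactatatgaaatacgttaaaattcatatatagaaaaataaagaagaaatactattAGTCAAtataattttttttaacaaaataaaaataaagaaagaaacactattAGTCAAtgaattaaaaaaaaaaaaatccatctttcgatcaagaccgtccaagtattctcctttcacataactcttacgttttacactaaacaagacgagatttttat
The match shown began 214 bases before the start of FAR4 and 203 bases before that of FAR5, and ASFT held 2, at 158 and 107 bases before its start. The window of FAR4 held both forms, the other within the 50 bases after its start, which are not shown. These matches describe the 3 sequences and show no site in use.

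Single genes of hormone and lipid metabolism, transport and chromatin were also among the 37. NCED3, which encodes the regulated enzyme of abscisic acid synthesis, had 356, 235 and 226 under doxycycline and 61.6, 39.5 and 39.3 under EtBr, against 69.4, 137 and 129 in water. Its groups did not overlap, with changes of 1.28 and -1.31. ACS11, an ACC synthase gene of ethylene synthesis, had 1285, 1317 and 1444 under doxycycline and 107, 80.9 and 90.7 under EtBr, against 839, 288 and 489.9 in water. Its groups were separate too, although its water libraries were uneven. Of 14 measured abscisic acid genes and 12 measured ethylene genes, NCED3 and ACS11 were the only members of the 265.

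DOX1, an alpha-dioxygenase gene that oxidizes fatty acids and whose name has no link to the drug, had 10507, 10297 and 10275 normalized counts under doxycycline and 727, 715 and 965 under EtBr, against 1613, 1266 and 2259 in water. All 3 groups were separate, with changes of 2.60 and -1.16, and its EtBr change was -0.92 without water replicate 3. ABCG34, an ABC transporter gene, averaged 2581 ± 151 under doxycycline and 466 ± 9.17 under EtBr, against 1228 ± 353 in water (SD, n = 3 each), and its doxycycline change of 1.07 was 0.87 without water replicate 2. CYP72A13, a cytochrome P450 gene, averaged 7095 ± 1129 and 1377 ± 207 against 3547 ± 701 (SD, n = 3 each), and its doxycycline change of 1.00 was 0.86 without doxycycline replicate 3, 0.97 without water replicate 1 and 0.88 without water replicate 3. HIS1-3, a linker histone gene induced by drought and chosen here after its values were seen, averaged 1427 ± 143 and 188 ± 26.7 against 702 ± 219 (SD, n = 3 each). Its doxycycline change of 1.02 was 0.94 without doxycycline replicate 1, 0.96 without water replicate 1 and 0.84 without water replicate 3.

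The remaining members of this direction that the rule named were AT4G25400, AT2G03200, AT5G35110, CRK39 and 3 plastid genes. The bHLH factor gene AT4G25400 had 137, 99.5 and 143 under doxycycline and 11.4, 0 and 3.02 under EtBr, against 15.1, 27.9 and 15.7 in water, and its EtBr change of -1.89 was -3.11 without EtBr replicate 1. AT5G35110, which the table does not describe, averaged 174 ± 10.3 and 17.0 ± 7.14 against 61.8 ± 25.2 (SD, n = 3 each). AT2G03200 had 461, 541 and 252 under doxycycline and 11.4, 21.2 and 7.05 under EtBr, against 29.2, 14.4 and 82.9 in water. Its EtBr and water libraries overlapped, and without water replicate 3 its changes of 3.28 and -1.66 were 4.2 and -0.76. CRK39, a cysteine-rich receptor-like kinase gene, averaged 65.1 ± 9.43 under doxycycline and 3.26 ± 3.54 under EtBr, against 10.3 ± 2.59 in water (SD, n = 3 each), and its EtBr change of -1.48 was -2.32 without EtBr replicate 1.

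In all, 4 of the 71 plastid genes with a group mean of at least 50 were higher under doxycycline and lower under EtBr, and none went the opposite way. PSBZ, a photosystem II subunit gene, had 14.9, 121 and 42.9 under doxycycline and 0, 0 and 0 under EtBr, against 3.02, 5.77 and 8.39 in water. With 0 reads in the EtBr libraries and 17 in the water libraries, it was at least 6.42-fold lower under EtBr, taking 3 reads over the group as the floor. Its doxycycline change of 3.17 was 2.15 without doxycycline replicate 2, which held 67.7% of the group's summed level. RPOC1, a subunit gene of the plastid RNA polymerase, had 211, 343 and 179 under doxycycline and 7.04, 1.84 and 0 under EtBr, against 2.01, 22.1 and 7.34 in water. The lysine transfer RNA gene TRNK had 582, 397 and 494 under doxycycline and 0.879, 6.44 and 3.02 under EtBr, against 4.02, 21.2 and 10.5 in water.

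On the EtBr side, RPOC1 and TRNK rested on 10 and 11 reads in the 3 EtBr libraries, against 32 and 36 in the 3 water libraries, and in both genes the EtBr and water libraries overlapped. Their doxycycline changes were 4.42 and 5.25, or 5.43 and 5.90 without water replicate 2. Their EtBr changes of -1.61 each were -0.57 and -0.95 without water replicate 2, -2.65 for RPOC1 without EtBr replicate 1 and -2.20 for TRNK without EtBr replicate 2. The arginine transfer RNA gene TRNR.1, named because it is the only other plastid member, averaged 64.4 ± 19.3 and 3.67 ± 5.60 against 9.14 ± 4.76 (SD, n = 3 each). Its EtBr change of -1.18 was -2.88 without EtBr replicate 2, -0.80 and -0.70 without EtBr replicates 1 and 3, and -0.86 without water replicate 1. Copies of a transfer RNA gene can share reads, and the labels used here do not say whether poly(A) RNA was selected.

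The 228 genes lower under doxycycline and higher under EtBr were mostly weakly expressed in water. Their median water level was 14.2 normalized counts, against 61.8 for the 37 genes of the other direction and 367 for the 18533 genes. Water means under 10 were held by 89 of the 228 (39.0%), by 2 of the 37 (5.41%) and by 662 of the 18533 (3.57%). The rule asked for a group mean of at least 50 and no level in water. Genes near 0 in water could thus enter the 228 only through EtBr, and the 37 only through doxycycline. In the doxycycline libraries 36 of the 228 genes had no read and 116 had fewer than 10 reads over the 3 libraries. The median change was -1.54 under doxycycline and 2.54 under EtBr for the 228 genes, and 1.48 and -1.57 for the 37. The EtBr change was the larger of the pair in 163 of the 228 and in 17 of the 37.

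**Figure D3:**
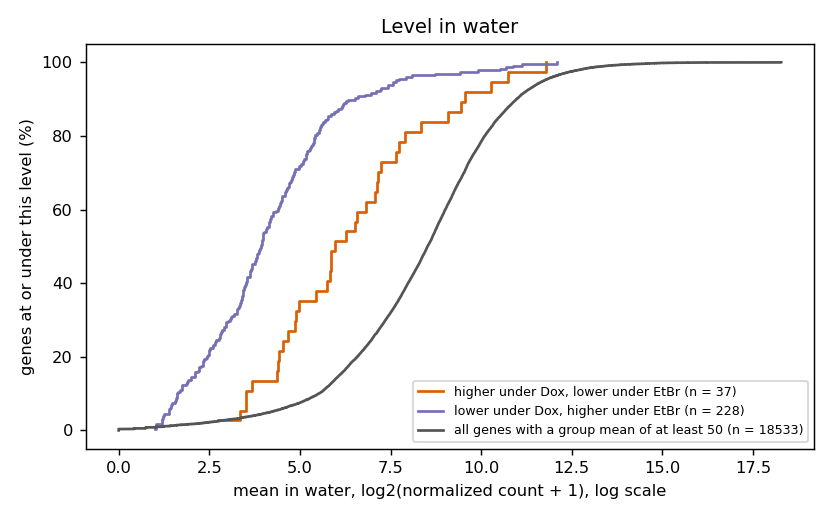
Cumulative share of genes (y axis, %) at or under a given mean level in water, as log2(normalized count + 1) on the x axis. The curve of the 228 genes lower under doxycycline and higher under EtBr lies left of the other curves over most of its range, with a median of 14.2 normalized counts, against 61.8 for the 37 genes of the other direction and 367 for all 18533 genes.

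Root hair genes were found in this direction. RSL4, a bHLH factor that sets how long root hairs grow, had 5.94, 1.95 and 7.98 normalized counts under doxycycline and 68.6, 75.4 and 89.7 under EtBr, against 16.1, 19.2 and 29.4 in water. The libraries of the 3 groups did not mix, with changes of -1.84 and 1.74. LRX1, a leucine-rich repeat extensin of the root hair wall, had 4.95, 3.90 and 0 under doxycycline and 150.4, 177 and 119 under EtBr, against 20.1, 19.2 and 97.6 in water. Its groups were separate too, but without water replicate 3 its changes of -3.56 and 1.62 were -2.39 and 2.78.

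EXPA7, an expansin that loosens the root hair wall, had 7.92, 11.7 and 0 under doxycycline and 114, 118 and 68.5 under EtBr, against 27.2, 28.8 and 70.3 in water. Its lowest EtBr library lay below its highest water library. Its changes of -2.51 and 1.17 were -3.12 without doxycycline replicate 2, and 0.94 and 0.97 without water replicates 1 and 2. RHS19, a class III peroxidase gene named for its expression in root hairs and chosen after its values were seen, had 0.990, 0 and 2.99 under doxycycline and 242, 335 and 351 under EtBr, against 79.5, 89.4 and 206 in water. Its groups did not overlap. Its doxycycline change of -5.76 rested on 4 doxycycline reads and 368 water reads, and was -6.40 without doxycycline replicate 3. Its EtBr change of 1.24 was 0.998 without water replicate 1, just short of the limit.

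Further members of this kind were likewise chosen after their values were seen. PERK13, a receptor kinase with an extensin-like domain, had 18.8, 12.7 and 14 under doxycycline and 172, 176 and 186 under EtBr, against 34.2, 26.0 and 53.5 in water, with separate groups. Its doxycycline change of -1.27 was -0.94 without water replicate 3. RSH3, annotated as the serine/threonine kinase RHS3, averaged 3.6 ± 2.80 under doxycycline and 61.0 ± 13.5 under EtBr, against 14.5 ± 5.73 in water (SD, n = 3 each), and its doxycycline change of -1.75 was -2.38 without doxycycline replicate 2. MRH2, an armadillo-repeat kinesin of root hairs, averaged 1.31 ± 1.49 and 143 ± 2.30 against 11.8 ± 4.73 (SD, n = 3 each), and its doxycycline change of -2.47 was -3.10 without doxycycline replicate 2. GH9C1, an endoglucanase of root hairs, averaged 9.93 ± 7.54 and 194 ± 45.3 against 53.5 ± 42.0 (SD, n = 3 each), and without water replicate 3 its changes of -2.32 and 1.78 were -1.48 and 2.60.

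RHS12, a pectin methylesterase gene, had 3 reads in the doxycycline libraries against 33 in the water libraries, a ratio of 0.0893 with a 95% exact interval of 0.0175 to 0.285, and averaged 53.2 ± 7.90 under EtBr, against 11.3 ± 8.53 in water (SD, n = 3 each). Without water replicate 3 the ratio was 0.141 and its EtBr change of 2.08 was 2.70. CML7, a calmodulin-like gene, had 1 read under doxycycline against 15 in water, a ratio of 0.0655 (0.00156 to 0.426), and G3Pp2, a glycerol-3-phosphate transporter gene, had 2 against 11, a ratio of 0.179 (0.0192 to 0.818). Under EtBr they averaged 325 ± 61.1 and 141 ± 26.8, against 5.04 ± 4.44 and 3.8 ± 4.25 in water (SD, n = 3 each). The ratio of CML7 was 0.0430 without water replicate 1, and that of G3Pp2 was 0.115 without water replicate 2 and 0.434 without water replicate 3. The EtBr change of G3Pp2 was 4.84, or 5.78 without water replicate 3.

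Not every root hair gene took this path. Of the 9 listed and measured root hair genes, 6 reached the group mean of 50 that the rule asks for, and 3 were members. By limma 8 of the 9 were lower under doxycycline and 1 did not pass, where 5.27% of all genes were called lower, while under EtBr 3 were called higher, 2 lower and 4 did not pass, where 34.2% of all genes were called higher and 21.2% lower. The median change of the 9 was -3.56 under doxycycline and -0.85 under EtBr, so on the EtBr side the list as a whole did not share the direction of its 3 members. The extensin-like genes PRP1 and PRP3 averaged 1.65 and 8.89 normalized counts under doxycycline and 18.3 and 74.8 under EtBr, against 57.8 and 129.9 in water, so both stood below water in both treatments by their means. Of 19 genes that RefSeq names as root hair specific, a group formed after the members were known, 13 reached a group mean of 50. Of these 13, 6 were members. Among the 6, only RHS19 had a water mean of at least 50 (125), and the others met that floor through EtBr alone. The rise under EtBr that made those genes members thus also placed them among the 13, so nothing is read from this share. The summed level of the 9 genes was 37.9 to 64.4 in doxycycline libraries and 451.3 to 559.2 in EtBr libraries, against 286.7 to 694.5 in water libraries, where water replicate 3 was the highest. EXPA18 and RSL2 had no read in any doxycycline library.

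**Figure D4:**
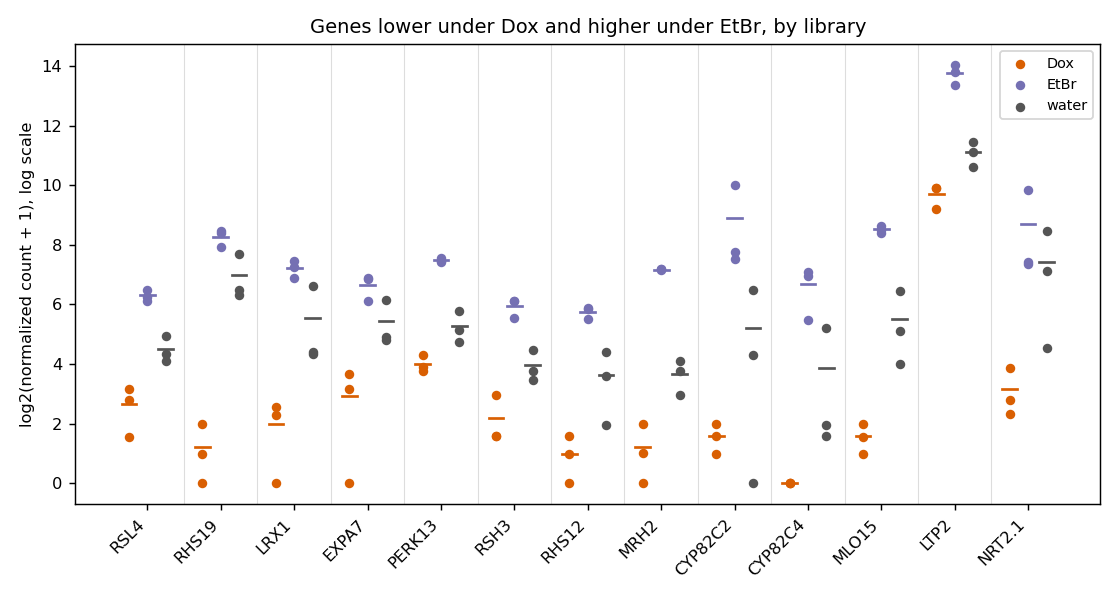
Level of 13 genes that were lower under doxycycline and higher under EtBr, as log2(normalized count + 1) on the y axis, with the same points and bars for doxycycline, EtBr and water, left to right within a gene. RSL4, RHS19, PERK13 and LTP2 show 3 separate groups, and CYP82C2 and NRT2.1 show water libraries spread over several log2 units. In LRX1, water replicate 3 lies above the other water libraries.

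The sequences before LRX1, EXPA7, PERK13, G3Pp2 and RSH3 are shown because they held the element described for root hair genes. They are 5 of the 9 members that stand in the root hair list or that RefSeq names as root hair specific, which leaves out MRH2 and GH9C1. It was searched in the same 300-base windows, on both strands, as TG, then 3 or 4 bases of any kind (N), then TCACG or GCACG, forms that can overlap, and it was added after the members were known. A match was held by 24 of 212 windows of genes lower under doxycycline and higher under EtBr (11.3%), by 1 of 33 windows of the opposite direction (3.03%) and by 901 of 18095 windows of all genes (4.98%). Without these 9 genes it was held by 19 of 203 (9.36%). Among genes of the same list or name that were not members, 4 of 9 held it (44.4%). Capitals mark the matches in the 250 bases before each start.
LRX1 (TAIR10.1, chr1:4069742-4069991, plus strand): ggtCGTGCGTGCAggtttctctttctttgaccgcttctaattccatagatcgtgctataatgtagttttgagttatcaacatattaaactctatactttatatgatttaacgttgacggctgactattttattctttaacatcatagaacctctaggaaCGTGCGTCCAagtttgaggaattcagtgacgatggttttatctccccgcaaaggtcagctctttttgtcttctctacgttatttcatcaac
EXPA7 (TAIR10.1, chr1:4276255-4276504, plus strand): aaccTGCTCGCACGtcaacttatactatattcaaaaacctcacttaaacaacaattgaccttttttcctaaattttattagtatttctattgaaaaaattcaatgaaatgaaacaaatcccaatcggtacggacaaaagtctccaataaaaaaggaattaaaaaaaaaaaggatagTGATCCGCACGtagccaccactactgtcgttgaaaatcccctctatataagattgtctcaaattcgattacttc
PERK13 (TAIR10.1, chr1:26555455-26555704, plus strand): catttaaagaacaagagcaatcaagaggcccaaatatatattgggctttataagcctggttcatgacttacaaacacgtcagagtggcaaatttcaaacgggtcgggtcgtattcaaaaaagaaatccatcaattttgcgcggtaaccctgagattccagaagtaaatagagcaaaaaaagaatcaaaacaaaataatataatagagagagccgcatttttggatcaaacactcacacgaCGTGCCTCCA
G3Pp2 (TAIR10.1, chr4:12920492-12920741, plus strand): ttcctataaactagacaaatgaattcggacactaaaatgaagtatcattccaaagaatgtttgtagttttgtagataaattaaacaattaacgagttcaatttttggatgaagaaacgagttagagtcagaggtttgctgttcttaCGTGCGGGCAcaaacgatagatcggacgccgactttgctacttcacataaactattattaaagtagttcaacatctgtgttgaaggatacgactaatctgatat
RSH3 (TAIR10.1, chr1:5615558-5615807, plus strand): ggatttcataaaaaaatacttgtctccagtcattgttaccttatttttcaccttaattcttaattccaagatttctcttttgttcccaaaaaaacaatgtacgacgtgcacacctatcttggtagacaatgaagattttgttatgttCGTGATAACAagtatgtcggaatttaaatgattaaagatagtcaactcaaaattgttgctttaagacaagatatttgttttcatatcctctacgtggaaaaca
LRX1 and EXPA7 held 2 matches each, and the nearest began 91 and 74 bases before their starts. The match of G3Pp2 began 104 bases before its start and that of RSH3 103 bases before. The match of PERK13 lay directly before the start and began 10 bases before it. RSL4, RHS19, RHS12 and CML7 held none in this window, which says nothing of sequence outside it.

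Cell wall genes outside the root hair list were also found in this direction, among them 3 of the 19 expansin genes with a group mean of at least 50, none of which was in the other direction. EXPB1, a beta-expansin, had 0.990, 1.95 and 0.997 under doxycycline and 121, 172 and 141 under EtBr, against 14.1, 2.88 and 26.2 in water. The groups did not overlap, but without water replicate 3 its changes of -2.74 and 3.18 were -2.04 and 3.87. AGP30, an arabinogalactan protein of roots, had no doxycycline read and 28 water reads, at least 9.87-fold lower, a limit that was 1.53-fold without water replicate 3 and 14.8-fold without water replicate 2. Its levels were 114, 112 and 84.6 under EtBr, against 3.02, 0 and 26.2 in water, and its EtBr change of 3.23 was 5.34 without water replicate 3. Of 27 arabinogalactan protein genes with a group mean of at least 50, AGP30 was the only member in this direction. AGP17 was the only member in the other. The median change of the 27, a group formed after the members were known, was -0.38 under doxycycline and -1.31 under EtBr. Under EtBr limma called 4 higher and 17 lower, where 34.2% and 21.2% of all genes were. The blue copper protein gene UCC3 had no read under doxycycline and 33 in water, at least 11.4-fold lower, or 6.95-fold without water replicate 3. It had 74.8, 101 and 79.6 under EtBr, against 6.04, 7.69 and 19.9 in water, and its EtBr change of 2.76 was 3.38 without water replicate 3.

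MLO15, a membrane protein gene of the MLO family, had 0.990, 1.95 and 2.99 under doxycycline and 337, 362 and 398 under EtBr, against 15.1, 33.7 and 86.0 in water. The groups were separate, and without water replicate 3 the changes of -3.95 and 2.93 were -3.09 and 3.77. QWRF7 and the glucan hydrolase gene AT3G47050 had no read under doxycycline, against 28 and 27 in water, and were at least 9.62-fold and 9.13-fold lower. Under EtBr they averaged 78.9 ± 6.61 and 76.2 ± 9.83, against 9.50 ± 4.63 and 9.02 ± 1.89 in water (SD, n = 3 each). AT5G60350, a gene of unknown function, had 2 reads under doxycycline against 34 in water, a ratio of 0.0578 (0.00672 to 0.225), and 363, 299 and 339 normalized counts under EtBr, against 11.1, 9.62 and 13.6 in water. AT3G53600 had 2 reads against 43, a ratio of 0.0457 (0.00536 to 0.175) that was 0.0786 without water replicate 3, and averaged 123 ± 33.6 under EtBr, against 14.7 ± 11 in water (SD, n = 3 each), and its EtBr change of 2.92 was 3.65 without water replicate 3.

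Single genes of coumarin and indole metabolism and of nutrient transport were members. CYP82C2 and CYP82C4, related P450 genes that lie near each other on chromosome 4, act on an indole nitrile and on the coumarin fraxetin. CYP82C2 had 2.97, 0.976 and 1.99 under doxycycline and 215, 185 and 1042 under EtBr, against 88.5, 0 and 18.9 in water. Its doxycycline and water libraries overlapped, its EtBr change of 3.64 was 2.38 without EtBr replicate 3, and without water replicate 1 its changes were -1.81 and 5.48 in place of -3.63 and 3.64. CYP82C4 had no read under doxycycline and 39 in water, at least 13.7-fold lower, or 2.48-fold without water replicate 3. It had 136, 124 and 43.3 under EtBr, against 2.01, 2.88 and 35.7 in water, and its EtBr change of 2.76 was 4.83 without water replicate 3. F6'H1, which makes the precursor of scopoletin and was chosen after its values were seen, had 58.4, 95.6 and 69.8 under doxycycline and 818, 768 and 1777 under EtBr, against 383, 89.4 and 337 in water. The doxycycline and water libraries of F6'H1 overlapped.

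Of 12 measured nitrate genes 1 was a member, and of 13 measured phosphate starvation genes none was. PHT1;9, a phosphate transporter gene outside that list, had 6.93, 0.976 and 1.99 under doxycycline and 201, 195 and 272 under EtBr, against 35.2, 16.3 and 28.3 in water. Its groups did not overlap, and its doxycycline change of -2.68 was -3.47 without doxycycline replicate 1. NRT2.1, the main high-affinity nitrate transporter gene, had 3.96, 13.7 and 5.98 under doxycycline and 171, 165 and 917 under EtBr, against 355, 22.1 and 138 in water. Its EtBr and water libraries overlapped, and its EtBr change of 1.21 was -0.10 without EtBr replicate 3, 2.30 without water replicate 1 and 0.69 without water replicate 2. Its doxycycline change of -4.29 was -3.2 without water replicate 1.

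Of 14 genes named as lipid transfer proteins, which bind lipids in the cell wall, with a group mean of at least 50, 2 were members in this direction. The median change of the 14, a group formed after the members were known, was -0.55 under doxycycline and -0.62 under EtBr, and under EtBr limma called 3 higher and 7 lower, where 34.2% and 21.2% of all genes were. LTP2 had 955, 584 and 962 under doxycycline and 10689, 14331 and 16909.7 under EtBr, against 2822, 1587 and 2243 in water, and its neighbour LP1 had 1718, 1644 and 1702 and then 10876, 12025 and 7492, against 2977, 5382 and 4809. The groups of both genes were separate, with changes of -1.41 and 2.59 for LTP2 and -1.38 and 1.13 for LP1. The EtBr change of LP1 was 0.99 without EtBr replicate 2 and 0.92 without water replicate 1. AT4G12500, a pEARLI1-like lipid transfer gene, had 65.3, 68.3 and 409.8 under doxycycline and 911, 1417 and 28042 under EtBr, against 4101, 26.0 and 1496 in water. EtBr replicate 3 held 92.3% of the EtBr group's summed level, and without it the EtBr change of 2.36 was -0.75. Without doxycycline replicate 3 its doxycycline change of -3.36 was -4.79, and without water replicate 1 its changes were -2.06 and 3.68. These genes have close relatives with which reads may be shared.

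Defence genes in this direction were PR2, a beta-1,3-glucanase, and PR5, a thaumatin-like protein, 2 of the 22 measured genes of salicylate signalling and defence. Of the 22, limma called 4 higher and 1 lower under doxycycline, where 6.47% and 5.27% of all genes were. Under EtBr it called 13 higher and 2 lower, where 34.2% and 21.2% were. Their median change was -0.09 under doxycycline and 1.35 under EtBr, so the list as a whole did not share the fall under doxycycline. PR2 had no read under doxycycline and 12 in water, at least 4.09-fold lower, and 66.8, 71.7 and 78.6 under EtBr, against 11.1, 0 and 1.05 in water. Its water level rested on water replicate 1, without which its EtBr change of 3.81 was 5.57 and the 1 water read left was under the floor, so that no fall could be given. PR5 had 25.7, 59.5 and 40.9 under doxycycline and 296, 349 and 347 under EtBr, against 47.3, 81.7 and 144 in water. Its doxycycline and water libraries overlapped, and its doxycycline change of -1.09 was -0.84 without doxycycline replicate 1 and -0.61 without water replicate 3.

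Cysteine-rich receptor-like kinases, a group formed after the members were known, were split between the directions, with 2 of 37 genes higher under doxycycline and lower under EtBr (CRK4 and CRK39) and 3 the other way (CRK6, CRK7 and CRK15). CRK4 averaged 547 ± 56.9 under doxycycline and 64.5 ± 19.2 under EtBr, against 238 ± 28.0 in water, whereas CRK15 averaged 32.0 ± 9.46 and 197 ± 13.2 against 71.6 ± 12.9 (SD, n = 3 each). The doxycycline change of CRK15, -1.14, was -0.98 without doxycycline replicate 2. CRK6 and CRK7 are adjacent on chromosome 4. CRK6 averaged 9.58 ± 7.26 and 73.5 ± 17.56 against 27.7 ± 13.1 (SD, n = 3 each), and its doxycycline change of -1.44 was -2.17 without doxycycline replicate 3. CRK7 had 1 read under doxycycline against 26 in water, a ratio of 0.0378 (0.000921 to 0.230), and averaged 72.4 ± 20.1 under EtBr, against 8.75 ± 4.80 in water (SD, n = 3 each).

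BIP3, an HSP70 chaperone of the endoplasmic reticulum, and BCAT4, the first enzyme of methionine chain elongation for glucosinolates, were the only members of their lists. Of 22 endoplasmic reticulum genes, limma called 1 higher and 14 lower under doxycycline and 8 higher and 10 lower under EtBr. Of 19 measured glucosinolate genes it called 0 higher and 1 lower under doxycycline, and 1 higher and 9 lower under EtBr. Of all genes 6.47% were higher and 5.27% lower under doxycycline, and 34.2% higher and 21.2% lower under EtBr. The lists' median EtBr changes were -0.14 and -1.20, so neither rose as a whole. BIP3 had 4.95, 4.88 and 29.9 under doxycycline and 188, 143 and 134 under EtBr, against 90.6, 79.8 and 48.3 in water. The groups were separate, its doxycycline change of -2.37 was -3.64 without doxycycline replicate 3, and its EtBr change of 1.01 was 0.85 without EtBr replicate 1 and 0.78 without water replicate 3. BCAT4 had 80.2, 234 and 47.9 under doxycycline and 595, 686 and 532 under EtBr, against 33.2, 31.7 and 668 in water, so that 1 water library set its water mean. Without water replicate 3 its doxycycline change of -1.01 was 1.86 and its EtBr change of 1.25 was 4.1. Its doxycycline change was -0.79 and -0.63 without doxycycline replicates 1 and 3 and -1.92 without doxycycline replicate 2, and its EtBr change was 0.73 without either of water replicates 1 and 2.

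DNA replication and recombination genes, a group formed after the members were known, gave 5 of 41. PCNA1, the replication clamp, had 27.7, 13.7 and 18.9 under doxycycline and 293, 325 and 238 under EtBr, against 27.2, 25 and 91.3 in water. Its doxycycline and water libraries overlapped, and without water replicate 3 its changes of -1.21 and 2.49 were -0.36 and 3.32. MCM10, a replication initiation factor, averaged 4.94 ± 1.01 and 58.1 ± 14.2 against 14.3 ± 2.69 (SD, n = 3 each), with separate groups. XRCC3 of homologous recombination, the helicase gene RECQI1 and the cohesin gene SYN3 were the others. None of the 41 was called by limma under doxycycline (4 were lower at an unadjusted p under 0.05, and edgeR and DESeq2 called 0), and 28 were called higher under EtBr, where 11.7% of all genes were called under doxycycline and 34.2% were called higher under EtBr.

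Members with few reads in water included genes known from the germline and sequences of transposons, all chosen after their values were seen. SWI1, a meiosis gene, had no read under doxycycline and 6 in water, at least 2.07-fold lower, or 1.06-fold without water replicate 1, and 86.2, 88.3 and 87.6 under EtBr, against 4.02, 0 and 2.1 in water, with an EtBr change of 4.82, or 5.40 without the same library. The egg cell-secreted-like gene AT5G52965 averaged 72.8 ± 15.3 under EtBr, against 1.60 ± 2.78 in water (SD, n = 3 each), where its 5 reads all lay in water replicate 2. Its doxycycline libraries held no read, so that without water replicate 2 both groups were at 0. An unnamed locus, which the table annotates with a transposase domain, averaged 3.61 ± 3.16 under doxycycline and 1796 ± 499.5 under EtBr, against 12.7 ± 12.1 in water (SD, n = 3 each). Its doxycycline change of -1.57 was -0.62, and its EtBr change of 6.96 was 7.93, without water replicate 2. Of the 228 genes 10 were such unnamed loci, 4 were long non-coding RNA genes and 2 were U2 small nuclear RNA genes, whose copies can share reads.

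The spread between libraries set how many members stood clear of water in both treatments. Of the 37 genes higher under doxycycline and lower under EtBr, all 3 libraries lay beyond all 3 water libraries for 35 under doxycycline and 29 under EtBr, where 18.4% of the 18533 genes lay above under doxycycline and 34.5% below under EtBr. For 28 of the 37 this held in both treatments, where 2.94% of the 18533 genes did so. Of the 228 genes 118 lay below all water libraries under doxycycline and 205 above them under EtBr, where 16.5% and 34.7% of the 18533 did, and 104 did both, where 2.33% did. Of the 37 genes 24, and of the 228 genes 48, passed limma with an adjusted p under 0.05 in both tables and in the rule's directions, where 0.707% and 0.442% of the 18533 genes did. Since the rule used these contrasts, nothing is read from these counts.

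Close to the limits, the 5 genes just inside on the side higher under doxycycline and lower under EtBr had a smaller change of 1.00 to 1.07, and the 5 just outside 0.97 to 1.00. On the opposite side the 5 just inside had 1.00 each and the 5 just outside 0.98 to 1.00. A change of at least 2 in each direction was reached by 1 of the 37, PSBZ, and by 40 of the 228.

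Water replicate 3 stood highest of the water libraries in 113 of the 228 genes (49.6%) and in 17 of the 37 (45.9%), against 28.8% of the 18533 genes, and its median distance above the mean of the other 2 was 0.39 (log2) in the 228 and 0.32 in the 37, against -0.01 over all. EtBr replicate 3 stood highest of its group in 114 of the 228 (50.0%), against 41.3% of all genes. Without water replicate 3 the rule still held for 174 of the 228 genes and 27 of the 37. With each of the 9 libraries left out in turn, 91 of the 228 and 15 of the 37 met the rule every time, among them FAR4, ASFT, MYB39, EDA4, MYB93, NCED3 and ACS11 in the first direction and RSL4, LRX1, RHS12, RSH3, CML7, MRH2 and LTP2 in the second. At least one change moved by over 1.5 times when a library was left out in 125 of the 228 and 11 of the 37, and a change reversed its sign in 8 of the 228 and in none of the 37. Outside these 8, the doxycycline change of further genes of the 228 was 0 without a single water library, which held all their water reads. ATL18, LIP2, MEE65, GH9B11 and SVL4 were among them.

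**Figure D5:**
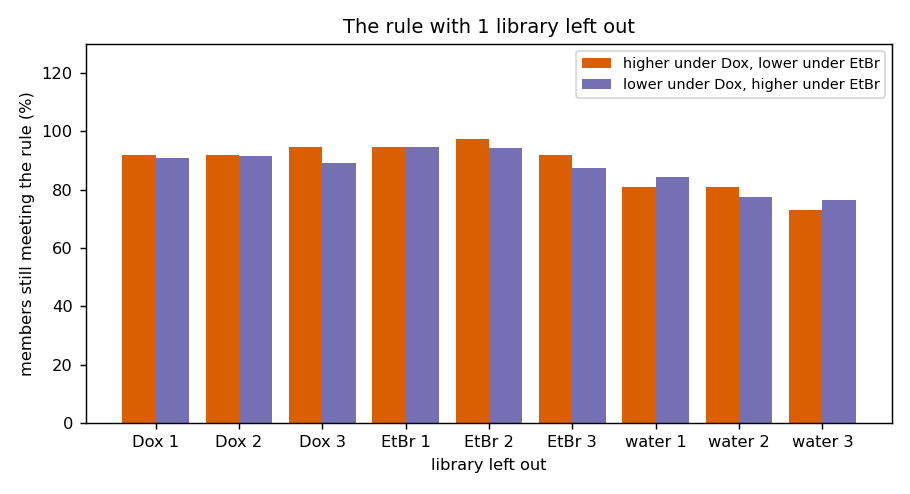
Share of the 37 and 228 genes that still met the rule (y axis, %) when the library on the x axis was left out. The lowest bars are those without water replicate 3, at 73.0% of the 37 and 76.3% of the 228.

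Some members lay near each other in the genome. Of the 251 members placed on the nuclear annotation, 17 pairs lay within 5 genes of each other, with 5 pairs directly adjacent. The 2 genes of a pair had the same direction as each other in all 17. However, 228 of the 265 members had the same direction, so most pairs of members would match. No expected number of close pairs was computed. FAR4 and FAR5 lay 2 genes apart on chromosome 3, and CYP82C4 and CYP82C2 lay 5 apart on chromosome 4. Chromosome 2 held 11 of the 37 genes higher under doxycycline and lower under EtBr (29.7%), 39 of the 228 (17.1%) and 15.1% of the 18533. These shares were not tested, and tandem relatives can share reads.

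Most gene lists had no member. Of 29 lists of pathways and markers, 21 held none of the 265 genes. The mitochondrial dysfunction stimulon, nuclear genes that respond to impaired mitochondria, was one of these, with a median change of 5.48 under doxycycline and 5.12 under EtBr over its 13 genes, all higher by limma in both tables, where 6.47% of all genes were called higher under doxycycline and 34.2% under EtBr. The auxin, flavonoid, jasmonate, heat shock, DNA damage and circadian clock lists held no member either.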

How the data were processed

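RNA-seq was measured in 9 libraries. The signal values that the authors deposited are normalized counts per library, in 1 table of doxycycline against water (24434 genes) and 1 of EtBr against water (28956 genes). Every value in the 12 library columns was a whole multiple of 1 step within 0.01 of a read, so reads were recovered. For 4 columns the step was near 1, where this check is weak. Each deposited table also holds p-values, raw and adjusted, and log2 changes from the authors, which are not printed here. Tools named per the submitters' processing notes are DESeq 1.18.0, HTSeq 0.6.1, TopHat2 2.0.12, Bowtie2 2.2.3 and CASAVA 1.8, without roles. No source used here names a genome build, but of 18315 genes matched to TAIR10.1 by identifier 18314 had the same start and end there. TRIzol RNA and a NEBNext Ultra kit were used, per the labels' protocols, and strand is not stated, so overlapping genes may share reads.

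Changes were computed from group means with a pseudocount of 1. Each treatment was tested against water within its table with limma 3.58.1 (R 4.3.3) with a variance trend on log2(value + 1), adjusted over all genes of that table by Benjamini-Hochberg. Fold limits use a floor of 3 reads over the group, and read ratios have 95% exact binomial intervals, which cover counting error only. Members, lists and tests were chosen with earlier results of these data known. Named genes were, per direction, the 12 with the largest smaller change, the 3 with the highest group mean and every listed gene. Gene names and promoter positions are from RefSeq TAIR10.1. The fits and the rule were tested on simulated data. Alternatives used other pseudocounts, filters, limits, scalings and libraries, edgeR 4.0.16 and DESeq2 1.42.0. Some motifs and gene groups were added after seeing the data.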

Additional observations from a re-analysis of the deposited data

How the results depend on the processing

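The 37 genes higher under doxycycline and lower under EtBr numbered 33 to 52 under other pseudocounts, filters and scalings, but 9 with limits of 1.5 and 1 with limits of 2 (log2 in each direction). The 228 genes of the other direction numbered 117 with a pseudocount of 5, 530 with a filter at a largest mean of 10, 602 with no filter, and 99 and 40 with limits of 1.5 and 2. With a library left out the counts were 35 to 47 and 212 to 266. Centring each table kept all 37 and all 228, and 1 set of size factors over the 9 libraries kept 37 and 222, while means of log2 values per library kept 37 and 185.

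The counts passing limma in both tables, 24 and 48, were 9 and 14 at a threshold of 0.01, and 7 to 17 and 7 to 38 with a library left out. edgeR gave 24 and 43 and DESeq2 28 and 67. With a replicate block they were 24 and 36. Deviations of same-numbered libraries correlated at -0.01, 0.03 and 0.01 for doxycycline and -0.14, 0.12 and -0.02 for EtBr. Those of differently numbered libraries ran from -0.10 to 0.10 for doxycycline and from -0.19 to 0.22 for EtBr. With 3 libraries per group, these values cannot show whether replicate numbers pair the libraries. Of 756 settings of 42 named genes, 3 reversed the sign. With a library left out, the EtBr change of AT4G12500 ran from -0.75 to 3.68 and that of NRT2.1 from -0.10 to 2.30, both negative without EtBr replicate 3, and the doxycycline change of BCAT4 ran from -1.92 to 1.86, positive without water replicate 3. The cause was not tested. Low read counts limit the doxycycline side of the 228 genes.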
